A study of Mus musculus with 6 samples.

Results

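The *Ifit* gene family was described in monocytes that can or cannot sense type I IFN. The members were the 6 mouse genes whose symbol begins with *Ifit* and that encode the interferon-induced proteins with tetratricopeptide repeats, namely *Ifit1*, *Ifit1bl1*, *Ifit1bl2*, *Ifit2*, *Ifit3*, and *Ifit3b*, out of 54232 genes in the files. They were chosen by name and not by any measured value, but with earlier results of these data known.

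Monocytes were sorted by FACS from the CNS of mice with EAE, a model of multiple sclerosis in which immunization with a myelin antigen leads to an immune attack on the CNS. The mice were mixed bone marrow (BM) chimeras: irradiated GFP+ recipients were given BM of CD45.1 WT donors mixed with as many cells from CD45.2 *Ifnar1*-/- donors, were immunized 6 to 7 weeks later, and all received 30000 IU of rIFN-β daily. WT and *Ifnar1*-/- monocytes (GFP-CD45+CD11b+Ly6ChiLy6G-) gave 3 RNA-seq libraries each, so that the comparison was between cells with and without a chain of the type I IFN receptor in treated hosts. No PBS-treated or unimmunized library was analysed here, *Ifnar1* was missing from all cells of its donors and not from monocytes alone, and the genotype cannot be told apart from the CD45 allele of the donor strain. There were 3 recipient mice and 3 libraries of each genotype, but no source used here ties a library to a mouse, so p-values measure the spread between these samples, which may be in part technical.

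Type I IFN binds a receptor of 2 chains, IFNAR1 and IFNAR2, and the kinases JAK1 and TYK2 then phosphorylate STAT proteins, among them STAT2, which joins IRF9 in the transcription factor ISGF3. ISGF3 binds interferon-stimulated response elements (ISREs) near the start of genes such as the *Ifit* genes, which are at low levels in most resting cells and are among the genes most readily induced by IFN. IFIT proteins hold RNA in a pocket formed by their tetratricopeptide repeats. IFIT1 binds RNA whose cap lacks the methyl group that host capping enzymes add to the first nucleotide and keeps it from being translated, IFIT1 and IFIT2 can also bind the translation initiation factor eIF3, and IFIT3 has been described as a link between MAVS and the kinase TBK1 in antiviral signaling.

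The 6 genes lay side by side on chromosome 19 (GRCm38, GENCODE M21), in 99.3 kb from 34550694 to 34650009, in the order *Ifit2*, *Ifit3*, *Ifit1bl1*, *Ifit3b*, *Ifit1bl2*, and *Ifit1*, and all are annotated as protein coding. *Ifit2* (34550694 to 34576419), *Ifit3* (34583531 to 34588731), *Ifit3b* (34607970 to 34613401), and *Ifit1* (34640871 to 34650009) are on the plus strand. *Ifit1bl1* (34592891 to 34601956) and *Ifit1bl2* (34617049 to 34640743) are on the minus strand, and *Ifit1bl2* and *Ifit1* start head to head. The sequences upstream of the starts are shown because the 5 tested members were called higher in WT and because ISGF3 binds the ISRE. They were taken from RefSeq (GRCm38.p6), are written 5′ to 3′ along the strand given, and hold no annotated exon of the gene they precede. Capitals mark matches to the ISRE core of 10 bases, which is GAAA, any 2 bases, and GAAA, searched on both strands and so also as TTTC, any 2 bases, and TTTC. The first line is the stretch chr19:34640744-34640870 (plus strand) between *Ifit1bl2* and *Ifit1*, followed by chr19:34583349-34583528 (plus strand) before *Ifit3*, chr19:34607747-34607956 (plus strand) before *Ifit3b*, chr19:34601969-34602118 (minus strand) before *Ifit1bl1*, and chr19:34550544-34550693 (plus strand) before *Ifit2*.
Ifit1 and Ifit1bl2: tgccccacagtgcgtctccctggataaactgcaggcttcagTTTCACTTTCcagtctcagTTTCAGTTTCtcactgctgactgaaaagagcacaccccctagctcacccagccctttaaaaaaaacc
Ifit3: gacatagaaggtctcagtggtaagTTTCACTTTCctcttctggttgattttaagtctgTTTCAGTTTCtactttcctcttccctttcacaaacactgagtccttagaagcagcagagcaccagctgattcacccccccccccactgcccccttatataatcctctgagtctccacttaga
Ifit3b: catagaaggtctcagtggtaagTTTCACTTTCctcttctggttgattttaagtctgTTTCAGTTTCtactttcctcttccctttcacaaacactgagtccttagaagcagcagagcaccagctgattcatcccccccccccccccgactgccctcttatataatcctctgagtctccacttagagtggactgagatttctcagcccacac
Ifit1bl1: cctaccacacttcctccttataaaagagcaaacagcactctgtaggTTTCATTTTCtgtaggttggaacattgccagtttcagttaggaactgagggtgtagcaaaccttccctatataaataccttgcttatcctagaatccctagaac
Ifit2: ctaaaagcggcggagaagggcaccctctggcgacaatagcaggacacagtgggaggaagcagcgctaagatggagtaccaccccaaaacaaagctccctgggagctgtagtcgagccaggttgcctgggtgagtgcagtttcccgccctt

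In the 250 bases before each RefSeq start, 5 of the 6 genes held the motif. *Ifit3* had matches that began 156 and 122 bases before its start, and *Ifit3b* had the same pair of 10-base sites at 188 and 154 bases. *Ifit1* had matches at 104 and 85 bases before its start, and *Ifit1bl2*, which is read in the other direction from the same stretch, had the same sites at 70 and 51 bases. *Ifit1bl1* has 2 RefSeq starts, with 1 match before each, at 104 and 23 bases. *Ifit2* had no match before either of its 2 RefSeq starts, nor had *Ifit1bl2* before its other start, which says only that these letters were not in those windows. In all there were 10 matches at 8 distinct sites. The motif was found in 978 of 32851 RefSeq windows of the same length (2.98%), and 59 windows (0.18%) held it at least 2 times. Counted by gene, with the best window of each, 936 of 27025 genes (3.46%) held it. A match is a description of the sequence, and binding was not measured.

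**Figure D1:**
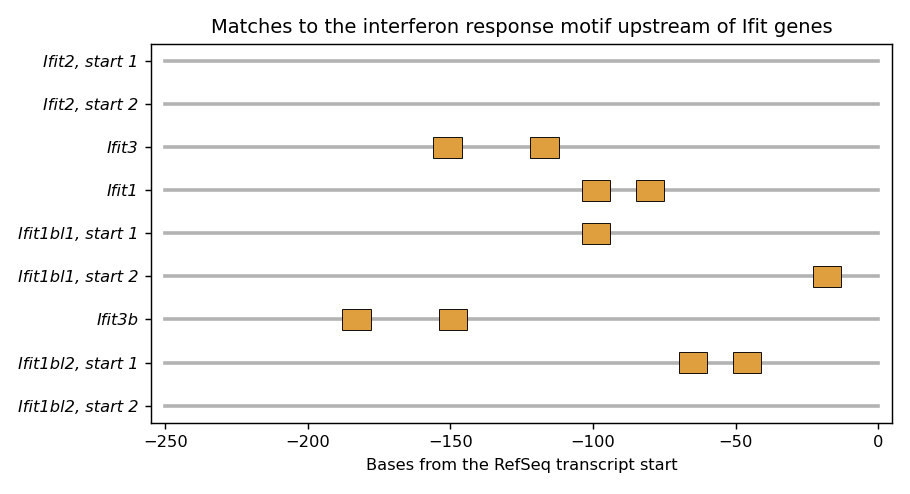
Positions of matches to the ISRE core in the 250 bases before each RefSeq start of the *Ifit* genes, with distance from the start in bases on the horizontal axis and one line per start. The pairs of sites before *Ifit3* and *Ifit3b* have the same spacing, and neither start of *Ifit2* shows one.

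The members differ in how far their reads can be told apart. *Ifit3* and *Ifit3b* are near copies: their longest transcripts were identical at 98.0% of aligned bases, their upstream windows at 216 of 218 aligned bases, and 41.1% of all 75-base windows of *Ifit3* (the read length) also occurred in *Ifit3b*. *Ifit1bl1* and *Ifit1bl2* were identical at 90.5% of aligned bases, *Ifit1* matched them at 78.1% and 75.6%, and *Ifit2* shared no 75-base window with any member. RSEM, the tool that made the files, splits a read that matches more than 1 gene between those genes, so its expected counts need not be whole. The expected counts of *Ifit2* and *Ifit1bl1* were whole in 6 of 6 libraries. Those of *Ifit3* and *Ifit3b* were fractional, but their sum was whole, within 0.01, in 6 of 6 libraries, and so was the sum of *Ifit1* and *Ifit1bl2*. Values of *Ifit3* and *Ifit3b* taken alone are therefore uncertain, and their sum is not affected by the division.

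The libraries held 4531782 to 7321380 expected counts in WT and 5442568 to 6916101 in *Ifnar1*-/- monocytes, and a floor of 3 counts corresponded to 0.410 to 0.662 CPM (counts scaled to library size), for counting error only. Libraries were scaled by TMM, and levels of a gene across libraries are given as normalized CPM. In WT library 1 the 7SL RNA gene *Rn7s2* took 27.8% of the summed TPM, against 7.86% to 11.2% for the top gene of the other libraries, so TPM (transcripts scaled for length and library total) is used to compare genes within a library. *Ifnar1* itself was counted at 111.3 to 152.7 normalized CPM in WT and 101.5 to 109.9 in *Ifnar1*-/- libraries (log2 fold change 0.28 ± 0.152 SE, adjusted p = 0.36 by the edgeR quasi-likelihood test), so its gene-level count does not check the labels. Fold changes are WT over *Ifnar1*-/-, and a gene was called when its Benjamini-Hochberg adjusted p over 11254 tested genes was at most 0.05 and its fold change at least 1.5. The SE of an edgeR log2 fold change is its absolute value divided by the square root of the test's F statistic. It was thus worked back from the test and is approximate, above all where a group is near 0.

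*Ifit* transcripts were abundant in WT and scarce in *Ifnar1*-/- monocytes. Summed over the 6 genes, the family reached 967.6 normalized CPM in WT library 1, 542.2 in library 2, and 630.6 in library 3, against 31.46, 28.98, and 24.09 in the *Ifnar1*-/- libraries 1 to 3, with means of 713.5 ± 224.5 and 28.17 ± 3.75 (SD, n = 3). The edgeR quasi-likelihood test called 5 members higher in WT, the 5 that passed its filter on low counts, where 1.67% of all tested genes were called in that direction and 2.13% in either. Their log2 fold changes ranged from 4.12 to 5.23 with a median of 4.58, against a median of -0.01 for all tested genes. The filter needed 1.78 CPM in at least 3 libraries: *Ifit2* and *Ifit3* met it in both genotypes, *Ifit1*, *Ifit1bl1*, and *Ifit3b* passed through the WT libraries, and the sixth member, *Ifit1bl2*, did not pass. For the 5 tested members every WT library lay above every *Ifnar1*-/- library, which held for 11.1% of tested genes. In a bulk sample, fewer expressing cells and less RNA per cell cannot be told apart.

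**Figure D2:**
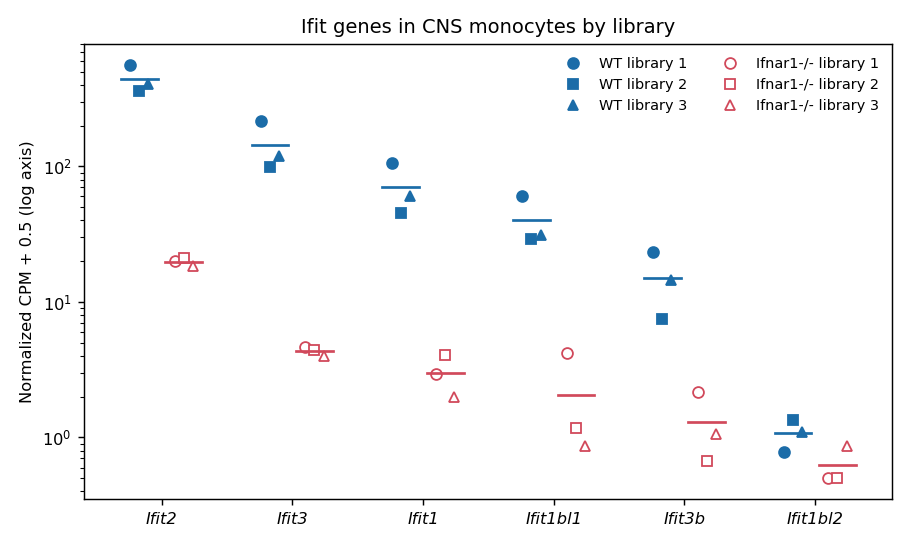
Normalized CPM plus 0.5 of each *Ifit* gene in each of the 3 WT (filled) and 3 *Ifnar1*-/- (open) libraries, on a log axis, with a horizontal line at each group mean. The groups are separate for the 5 tested genes, and WT library 1 is the highest library for each of them.

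*Ifit2*, whose product can bind eIF3 and has been linked to cell death and to restriction of viruses in the nervous system, was the most abundant member. Its normalized CPM were 562.6, 362.4, and 407.7 in WT and 19.55, 20.67, and 17.84 in *Ifnar1*-/- libraries. The 3 *Ifnar1*-/- libraries were close together, and the lowest WT library was 17.5 times the highest of them. *Ifit2* was 22.9-fold higher in WT (log2 fold change 4.52 ± 0.212 SE, adjusted p = 2.63e-06, edgeR quasi-likelihood test) and ranked 3 of 11254 genes by p-value. It was also the member with the most counts in the group without the receptor, where 97 to 128 expected counts were found per library, well above the floor. The purity of the sort was not measured here, so carry-over of WT cells into these libraries was not tested.

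*Ifit3*, the member described as a link to MAVS and TBK1, had the largest fold change of the tested members with all libraries, but without *Ifnar1*-/- library 1 *Ifit1bl1* (log2 6.20) and *Ifit3b* (5.32) were above it (5.30). It was measured at 216.7, 98.62, and 117.9 normalized CPM in WT and at 4.12, 3.90, and 3.49 in *Ifnar1*-/- libraries. Again the *Ifnar1*-/- libraries were tightly grouped and the WT libraries spread more widely. The difference was 37.4-fold (log2 fold change 5.23 ± 0.332 SE, adjusted p = 1.51e-05, edgeR quasi-likelihood test). By signed log2 fold change, with the highest in WT first, *Ifit3* was rank 2 of all tested genes. Its near copy *Ifit3b* was at 22.77, 7.01, and 14.02 normalized CPM in WT and 1.68, 0.169, and 0.552 in *Ifnar1*-/- libraries, where libraries 2 and 3 were at or under the floor. *Ifit3b* was 17.4-fold higher in WT (log2 fold change 4.12 ± 0.596 SE, adjusted p = 0.00449, edgeR). Without *Ifnar1*-/- library 1 its log2 fold change was 5.32. With both genes summed into 1 feature, so that the division of shared reads does not matter, the log2 difference in edgeR was 5.09 ± 0.343 SE (adjusted p = 1.98e-05).

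*Ifit1*, which binds RNA with an incompletely methylated cap, was measured at 105.6, 44.85, and 59.62 normalized CPM in WT and at 2.44, 3.56, and 1.47 in *Ifnar1*-/- libraries. The *Ifnar1*-/- values rested on 8 to 21 expected counts per library, above the floor in each. *Ifit1* was 27.8-fold higher in WT (log2 fold change 4.80 ± 0.387 SE, adjusted p = 8.72e-05, edgeR quasi-likelihood test). *Ifit1bl1*, a relative of *Ifit1* named for its likeness to it, had 59.62, 28.48, and 30.80 normalized CPM in WT and 3.67, 0.678, and 0.368 in *Ifnar1*-/- libraries. Library 1 of the *Ifnar1*-/- group stood apart, with 24 expected counts against 4 and 2 in the others. The fold change of *Ifit1bl1* was 23.9 (log2 4.58 ± 0.545 SE, adjusted p = 0.00117, edgeR), and without *Ifnar1*-/- library 1 the log2 value was 6.20. *Ifit1bl2*, the other relative, was nearly undetected: over all libraries of a group it had 9 counts in WT (95% exact Poisson interval 4.12 to 17.1) and 2 in *Ifnar1*-/- monocytes (0.242 to 7.22), with 0 in 2 of 3 *Ifnar1*-/- libraries. These intervals cover counting error only and they overlap, which does not decide whether the groups differ. *Ifit1bl2* did not pass the filter on low counts, so a difference was not tested and no fold change is given. With *Ifit1*, *Ifit1bl1*, and *Ifit1bl2* summed, the log2 difference in edgeR was 4.69 ± 0.384 SE (adjusted p = 9.43e-05).

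**Figure D3:**
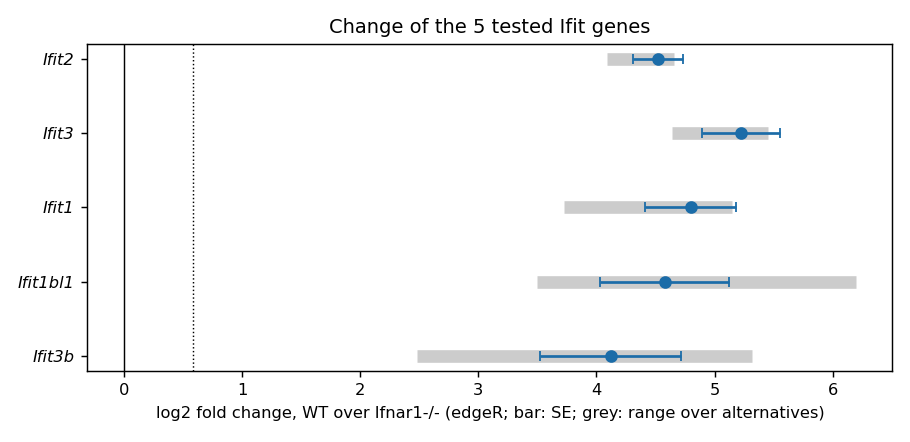
Log2 fold change of the 5 tested *Ifit* genes, WT over *Ifnar1*-/-, from edgeR, with bars of 1 SE. The values run from 4.12 for *Ifit3b* to 5.23 for *Ifit3*, and the SE is largest for *Ifit3b* and smallest for *Ifit2*.

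Per length, the order of the members in WT monocytes was *Ifit2*, *Ifit3*, *Ifit1*, *Ifit1bl1*, *Ifit3b*, and *Ifit1bl2*. On the TPM scale, *Ifit2* was at 104 to 115 and *Ifit3* at 65.3 to 99.0 in WT libraries, ranges that did not overlap, which placed *Ifit2* within the top 5.41% to 8.11% and *Ifit3* within the top 5.95% to 12.6% of tested genes. The TPM of *Ifit1* was 18.7 to 30.4 and that of *Ifit1bl1* 14.5 to 21.03, and these neighbours overlapped. *Ifit3b* followed at 3.97 to 8.91 TPM and *Ifit1bl2* at 0.07 to 0.29. In *Ifnar1*-/- libraries *Ifit2* was again first at 4.74 to 6.73 TPM and *Ifit3* next at 1.94 to 2.49. Below them, the TPM ranges of *Ifit1* (0.52 to 1.45), *Ifit1bl1* (0.16 to 1.56), and *Ifit3b* (0.11 to 0.81) overlapped. Even the leading member was then an ordinary transcript, with *Ifit2* at ranks 7109 to 7776 of 11254.

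The make-up of the family was compared within libraries. *Ifit2* took 41.0%, 50.3%, and 47.6% of the summed *Ifit* TPM in WT and 49.0%, 60.5%, and 61.2% in *Ifnar1*-/- libraries. *Ifit3* took 36.6%, 31.6%, and 32.3% in WT and 21.1%, 22.4%, and 25.03% in *Ifnar1*-/- libraries, so that the groups did not overlap for *Ifit3* but did for *Ifit2*. The share of *Ifit3* was 10.7 percentage points higher in WT (SE 1.96, two-sided exact permutation p = 0.1, the smallest p that 3 libraries against 3 allow, and 0.6 after adjustment over the 6 genes). By expected counts in place of TPM the difference was 6.16 points. For *Ifit2* the share was 46.3% ± 4.75 in WT and 56.9% ± 6.83 in *Ifnar1*-/- monocytes (SD, n = 3, exact permutation p = 0.2). Its difference, WT minus *Ifnar1*-/-, was -10.6 points by TPM and -5.96 points by expected counts. The shares of *Ifit1* (10.2% ± 1.10 against 9.24% ± 3.35, SD) and *Ifit1bl1* (7.11% ± 0.626 against 6.52% ± 6.87, SD) differed by less than the spread between *Ifnar1*-/- libraries.

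**Figure D4:**
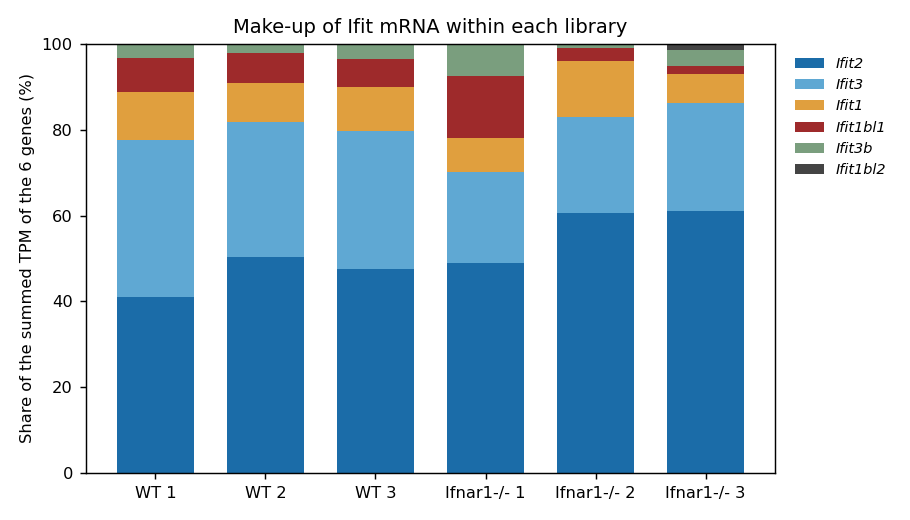
Share of each *Ifit* gene in the summed TPM of the 6 genes, in percent, stacked for each library. *Ifit2* and *Ifit3* together make up most of the sum in every library, and the *Ifit3* share is 31.6% to 36.6% in WT and 21.1% to 25.03% in *Ifnar1*-/- libraries.

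Fold changes were also compared directly, as log2 ratios of 2 members' TPM (plus 0.1) within a library. The *Ifit2* to *Ifit3* ratio was 0.16, 0.67, and 0.56 in WT and 1.18, 1.40, and 1.25 in *Ifnar1*-/- libraries, without overlap. On this log2 scale the fold change of *Ifit2* was below that of *Ifit3* by a difference of -0.81 (SE 0.167, exact permutation p = 0.1, adjusted over 4 pairs 0.4). The other differences were smaller against their error: 0.35 (SE 0.296) for *Ifit1* minus *Ifit2*, -0.46 (SE 0.287) for *Ifit1* minus *Ifit3*, and 1.10 (SE 0.683) for *Ifit3* minus *Ifit3b*. The permutation test cannot give a p below 0.1 for any of the 4 in this design. Ratios with *Ifit3* or *Ifit3b* depend on how shared reads were divided. *Ifit3b* took 6.62% to 10.7% of the summed counts of both genes in WT and 5.08% to 29.2% in *Ifnar1*-/- libraries. With both summed, the edgeR log2 fold change was 5.09, against 4.52 for *Ifit2*. With a library left out, *Ifit2* minus *Ifit3* ran from -0.91 to -0.66, *Ifit1* minus *Ifit2* from 0.13 to 0.55, *Ifit1* minus *Ifit3* from -0.69 to -0.20, and *Ifit3* minus *Ifit3b* from 0.55 to 1.67. With 1 TPM added in place of 0.1, the sign of *Ifit1* minus *Ifit2* turned (-0.36), *Ifit1* minus *Ifit3* was -0.92, *Ifit2* minus *Ifit3* was -0.56, and *Ifit3* minus *Ifit3b* was 2.17.

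*Ifit2* has an annotated long transcript of 3818 bases and a short one of 700 bases, and the mean transcript length that RSEM reports allowed their shares to be worked out. The short form made up 1.06%, 1.67%, and 0% of *Ifit2* TPM in WT and 14.0%, 17.4%, and 11.2% in *Ifnar1*-/- libraries. In TPM the short form was at 1.17, 1.73, and 0 in WT and at 0.741, 1.17, and 0.531 in *Ifnar1*-/- libraries, which overlap. The long form was at 102 to 115 and 4.21 to 5.56. TPM was not scaled between libraries by TMM, so these levels across libraries are a description only. The short form rests on at most 5.9 estimated counts per library, so its share is uncertain. The mean *Ifit2* length was 3766 to 3818 bases in WT and 3276 to 3469 in *Ifnar1*-/- libraries. The *Ifit2* TPM used for the shares and ratios above depends on this length.

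The receptor and ISGF3 list held 9 genes, all tested, of which 2 were called higher and 0 lower, with a median log2 fold change of 0.29. Over all tested genes 1.67% were called higher and 0.462% lower, which is also the background for the lists that follow. DESeq2 called 419 of the 21265 genes with a count, in either direction. *Stat2*, a subunit of ISGF3, was at 189.4, 123.1, and 139.0 normalized CPM in WT and at 30.85, 44.06, and 35.31 in *Ifnar1*-/- libraries (log2 fold change 2.04 ± 0.202 SE, adjusted p = 0.000347, edgeR). *Usp18*, which encodes an inhibitor of the receptor that is itself IFN-induced, was at 109.4, 69.93, and 70.28 against 3.82, 4.91, and 6.07 (log2 fold change 4.09 ± 0.25 SE, adjusted p = 1.26e-05, edgeR). The log2 fold change of *Usp18* was close to the lowest among the tested *Ifit* genes (4.12 for *Ifit3b*), and that of *Stat2* was below all 5. *Irf9*, which also encodes a subunit of ISGF3 (log2 fold change 0.50, adjusted p = 0.0842), and the receptor gene *Ifnar2* (0.25, adjusted p = 0.342) did not pass the edgeR test.

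Genes of RNA sensing upstream of IRF3, the pathway in which IFIT3 has been placed, showed 3 of 9 members called higher and 0 lower, with a median log2 fold change of 0.26. The called members were the 3 RNA helicase genes, *Ddx58* (RIG-I, log2 fold change 2.38 ± 0.254 SE, adjusted p = 0.000564), *Dhx58* (LGP2, 1.94 ± 0.195 SE, adjusted p = 0.000389), and *Ifih1* (MDA5, 1.65 ± 0.158 SE, adjusted p = 0.00029, edgeR). Their normalized CPM were 79.28 to 168.9, 83.74 to 123.8, and 121.6 to 162.1 in WT and 22.07 to 23.06, 21.84 to 29.48, and 39.91 to 48.29 in *Ifnar1*-/- libraries, in that order. The groups were separate for each. *Ikbke*, a kinase gene related to *Tbk1*, had a log2 fold change of 0.42 and did not pass (adjusted p = 0.239, edgeR).

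Genes for cap formation, modification, and removal, which shape the RNA end that IFIT1 reads, had 1 of 8 members called higher and 0 lower, with a median log2 fold change of -0.07. The called gene was *Cmtr1*, which encodes the methyltransferase that places the methyl group IFIT1 is sensitive to. It was at 116.0, 98.19, and 95.16 normalized CPM in WT and at 62.46, 61.34, and 66.02 in *Ifnar1*-/- libraries (log2 fold change 0.71 ± 0.138 SE, adjusted p = 0.0267, edgeR). The groups did not overlap, but in edgeR the call was lost (0 of 8) with a replicate block (log2 fold change 0.70, adjusted p = 0.0548) and without any 1 library other than WT library 2 (adjusted p of 0.0562 to 0.123), and it was lost in limma on log2(TPM + 1) (0.53, adjusted p = 0.601). The log2 fold change stayed at 0.62 to 0.78 with a library left out, and DESeq2 with the block kept the call (0.72, adjusted p = 0.0331). *Cmtr2* (-0.87, adjusted p = 0.184), *Pcif1* (0.46, adjusted p = 0.179), and *Ramac* (-0.45, adjusted p = 0.285), given as log2 fold changes from edgeR, did not pass.

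Of 14 genes for subunits of eIF3, 0 were called by edgeR, with 7 at an unadjusted p under 0.05, and 1 was called by DESeq2, where 17.8% of all tested genes had an unadjusted p under 0.05. The median log2 fold change was -0.32, and 12 of 14 values were below 0 under TMM and RLE scaling alike, against 51.8% of all tested genes under TMM. The smallest adjusted p belonged to *Eif3i* (log2 fold change -0.58, adjusted p = 0.101, edgeR) and *Eif3e* (-0.61, adjusted p = 0.113), and *Eif3e* was the gene called lower in WT by DESeq2. *Eif3j2* (-0.67, adjusted p = 0.149) and *Eif3l* (-0.40, adjusted p = 0.18) followed in edgeR.

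The difference was also set against the genes around the cluster. Within 1 Mb on either side, 6 other genes passed the filter, 0 were called by edgeR or DESeq2, 0 had an unadjusted p under 0.05, and their median log2 fold change was -0.07. Over all tested genes 2.13% were called by edgeR and 17.8% had an unadjusted p under 0.05. With 6 genes, counts of 0 are thus close to this background and say little about the neighbours. The nearest was *Lipa*, a lysosomal lipase gene on the minus strand whose nearest edge, its own start, is 23.2 kb from *Ifit2*, at 81.62 to 92.06 normalized CPM in WT and 63.22 to 81.10 in *Ifnar1*-/- libraries (log2 fold change 0.30, adjusted p = 0.308, edgeR). *Ch25h*, a cholesterol hydroxylase gene 75.5 kb from *Ifit2* that IFN can induce, was at 1.78 to 3.83 and 0.611 to 3.73 normalized CPM, close to its floor in some libraries (log2 fold change 0.62, adjusted p = 0.662, edgeR). *Kif20b* was the only tested neighbour on the far side of the cluster, 272.4 kb from its edge, and had a log2 fold change of -0.34 (adjusted p = 0.601, edgeR). *Lipo3*, on the same side as *Lipa* and with its nearest edge 788.7 kb from the cluster, had one of -0.35 (adjusted p = 0.601, edgeR).

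**Figure D5:**
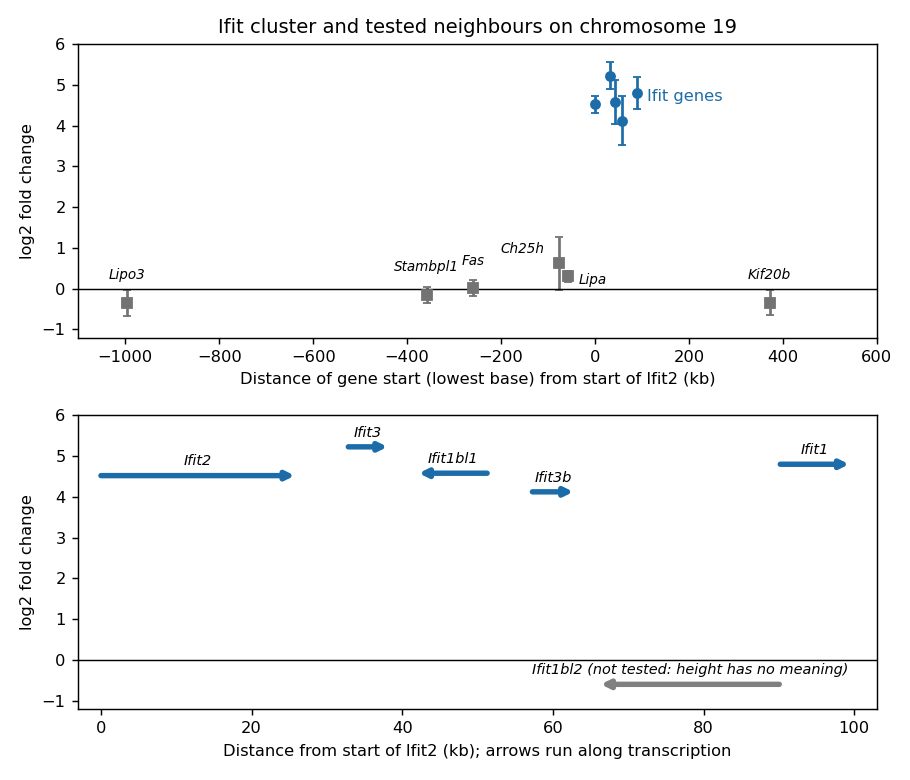
Log2 fold change (WT over *Ifnar1*-/-, bars of 1 SE) against the distance in kb of a gene's lowest coordinate from the start of *Ifit2*, for tested genes within 1 Mb (top), and the *Ifit* genes to scale with arrows along transcription (bottom). The 5 tested *Ifit* genes lie between 4.12 and 5.23, and the 6 neighbours between -0.35 and 0.62.

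The genes whose pattern over the 6 libraries was most like the mean of the 5 tested *Ifit* genes were *Mx1*, *Oas1a*, *Slfn4*, *Rsad2*, and *Ifi208*, a description with no test. Likeness was the root mean square difference in log2 normalized CPM, each gene set to its *Ifnar1*-/- mean, and was 0.31 for *Mx1*, an antiviral GTPase gene, and 0.35 for *Oas1a*, of the oligoadenylate synthetases. It was 0.42 for *Slfn4*, 0.45 for *Rsad2* (viperin), and 0.46 for *Ifi208*. By the same measure the members stood at 0.28 (*Ifit2*), 0.33 (*Ifit1*), 0.45 (*Ifit3*), 0.46 (*Ifit1bl1*), and 0.71 (*Ifit3b*). *Mx1* and *Oas1a* were thus closer to the family mean than *Ifit3*, *Ifit1bl1*, and *Ifit3b* were, although the mean includes those genes. The 5 named genes were picked for the smallest values among all other tested genes, so this order follows in part from the choice.

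Cell type markers were read beside these differences. The summed level of 6 monocyte markers, to which *Lyz2* gave the most, was 7490 to 9104 normalized CPM in WT and 7978 to 9118 in *Ifnar1*-/- libraries, but single markers moved apart: 3 of 6 had a positive log2 fold change, 3 had an unadjusted p under 0.05, 1 was called by edgeR, and 3 were called by DESeq2. *Ly6c2*, the gene of the sort marker Ly6C, was called higher in WT (639.7 to 788.3 against 176.8 to 337.1, log2 fold change 1.40 ± 0.23 SE, adjusted p = 0.00957, edgeR). *Fcgr1* was at 271.5 to 412.9 in WT and 192.2 to 203.1 in *Ifnar1*-/- libraries (adjusted p = 0.0839, edgeR), and *Ccr2* was at 586.8 to 693.7 and 794.0 to 1269 (adjusted p = 0.143, edgeR). Of 6 T cell markers, 6 had a positive log2 fold change, 5 had an unadjusted p under 0.05, and 0 were called by edgeR or DESeq2, and their sum was 15.94 to 38.56 normalized CPM in WT and 6.44 to 15.27 in *Ifnar1*-/- libraries. Over all tested genes 48.2% of log2 fold changes were above 0, 17.8% had an unadjusted p under 0.05, and 2.13% were called by edgeR. DESeq2 called 419 of the 21265 genes with a count. The part of T cells and of the monocyte markers in the *Ifit* difference was not tested. The 4 B cell markers summed to 1.49 to 1.71 and 0.305 to 1.10, and the 5 plasmacytoid DC markers to 53.35 to 70.58 and 37.15 to 54.52, nearly all from *Tcf4*. The sums of 6 neutrophil markers (281.3 to 1700 and 741.0 to 2064, with *Ly6g* at most 0.79), 6 microglial markers (243.5 to 322.2 and 287.7 to 363.3), and 5 neural markers (44.63 to 61.19 and 44.06 to 50.76, with *Mog* at 0) overlapped between genotypes.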

How the data were processed

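RNA-seq was made by the authors from sorted CNS monocytes, and 6 libraries (3 WT and 3 *Ifnar1*-/-) were grouped by their deposited genotype labels. The submitters' processing notes name STAR 2.6.0c, RSEM 1.2.31, and GRCm38. The deposited files give an expected count per gene, estimated by RSEM and not normalized, and a TPM value, scaled by the authors for length and to the same total per library. The deposited labels name a SMARTer Stranded Total RNA-Seq Pico kit and the methods a TruSeq Stranded Total RNA kit, and whether strand was used in counting is not given in the sources used here. Depth was 4531782 to 7321380 expected counts per library, which limits low members to a floor of 3 counts.

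Expected counts were rounded and tested with edgeR 4.0.16 in R 4.3.3 (TMM, filterByExpr with a minimum count of 10, quasi-likelihood test, no block), with Benjamini-Hochberg adjustment over 11254 of 21265 genes with a count. GENCODE M21 matched 54165 of 54232 gene identifiers. Shares and ratios used TPM and two-sided exact permutation tests over libraries. Promoter windows came from RefSeq. The alternatives were DESeq2 1.42.0, RLE, limma-voom and limma 3.58.1 on log2(TPM + 1), unrounded counts, no filter, removal of mitochondrial and rRNA genes, similar genes summed, a replicate block, and each library left out. On simulated counts for this comparison (11066 genes tested), edgeR recovered 94.9% of genes changed 4-fold and 60.8% of those changed 2-fold, with 4.4% false among its calls, and it called 1 of 11090 genes when none was changed. These counts were drawn from the count model that edgeR assumes, with dispersions it estimated from these data. The rates are therefore a check of the procedure and need not hold for the real libraries.

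The genes named were the 6 members, from each list the called members and those uncalled with the smallest p up to 4 names, and the 5 genes most like the family. *Ifnar1*, *Rn7s2*, and the marker genes named were added after their values were seen. The members, lists, and tests were chosen with earlier results of these data known. Values of some genes in the lists are not given.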

Additional observations from a re-analysis of the deposited data

How the results depend on the processing

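The 5 tested *Ifit* genes kept their direction and their call under every alternative that was run for them, with log2 fold changes of 3.72 to 5.15 for *Ifit1*, 3.50 to 6.20 for *Ifit1bl1*, 4.09 to 4.66 for *Ifit2*, 4.64 to 5.45 for *Ifit3*, and 2.48 to 5.32 for *Ifit3b*, and a largest adjusted p of 0.0359 (for *Ifit3b*). With similar genes summed, 3 features stood for the family by construction, and 3 were called. The number of differentially expressed genes moved more: 240 became 419 with DESeq2, 128 with limma on log2(TPM + 1), and 872 without a filter on low counts, and it ranged from 119 to 245 with a library left out (119 without *Ifnar1*-/- library 1, 120 without *Ifnar1*-/- library 3, and 148 without WT library 3). The cause was not tested. The eIF3 genes called lower went from 0 to 1 with DESeq2 and 2 without a filter. The cap genes called higher were 0 with the replicate block and 0 to 1 with a library left out. The share of *Ifit3* differed by 6.16 points by expected counts, and *Ifit1* minus *Ifit2* was -0.36 with 1 TPM added. Same-numbered libraries deviated from their group means with correlations of 0.0872, 0.0265, and 0.2887 across genes, and WT library 1 correlated more with *Ifnar1*-/- library 2 (0.1013), so the numbers were not shown to pair samples. With the replicate block 220 genes and the same 5 *Ifit* genes were called. Depth limits *Ifit1bl2*, *Ifit3b*, and *Ifit1bl1* in *Ifnar1*-/- libraries.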
